A study of Mus musculus with 9 samples.

Results

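The subunits of activator protein 1 (AP-1) were followed through a period of culture in dendritic cells of the lung, selected for the integrin CD103. The 10 genes Fos, Fosb, Fosl1, Fosl2, Jun, Junb, Jund, Atf3, Batf and Maff were found by an exact match of their symbols, each to 1 of 49317 rows of the count table. Dendritic cells take up antigen in tissues and present it to T cells. The cells were isolated from lungs of C57/BL6j mice exposed for 7 days to bleomycin, which injures the lung and is used as a model of fibrosis. Lungs were dispersed with collagenase, and cells positive for CD103 were pulled out with magnetic beads. RNA was taken from them at once in 5 samples (before culture), or following 18 h ex vivo in RPMI with 10% fetal bovine serum and 1% penicillin and streptomycin in 4 samples (after culture). Both groups thus had the bleomycin, the digestion and the bead selection in common, and no untreated lung is used here. After-culture replicates 1 to 4 are the libraries named A1, A3, A4 and A5. Neither the age and sex of the mice nor pooling of animals is stated. Where samples of a group do not come from separate animals, the p-values below measure only the spread between these samples.

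AP-1 is a dimer of basic leucine zipper proteins. The Jun proteins pair with one another or with a Fos protein, while Fos proteins need a Jun partner to bind DNA. Growth factors, stress and pattern recognition receptors act through MAP kinases to raise transcription of Fos, Jun and their relatives within minutes, which makes them immediate early genes. Fosl1 and Fosl2 (the proteins Fra-1 and Fra-2) lack the strong activation domain of Fos. Atf3 is a stress-induced regulator that often represses its targets, Batf lacks an activation domain and works with Jun and IRF proteins, and Maff is a small Maf protein that pairs with itself or with NRF-type partners. In dendritic cells BATF factors and IRF8 occupy composite DNA elements.

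Of the 10 genes, 9 fell after culture and 1, Fosl1, rose. All were well covered, with at least 188 reads in every sample. Each change passed an adjusted p of 0.05 in limma, fitted to log2(normalized count + 1) over all 18202 tested genes with Benjamini-Hochberg adjustment. In that fit 34.6% of tested genes were lower and 34.2% higher after culture (68.8% in either direction). On reads recovered from the table, edgeR's quasi-likelihood test (35.0% of tested genes lower, 34.0% higher) and DESeq2 (35.0% and 34.6%) likewise called 9 of the 10 lower and 1 higher. The median log2 fold change of the 10 genes was −3.12, beside 0.0065 for all tested genes. Groups did not overlap for any of them, 9 with lower and 1 with higher values after culture, whereas 28.6% of tested genes were lower without overlap and 28.7% higher without overlap. A fall of at least 10-fold in the group mean was met by 4 of the 10 (Fosb, Fos, Jun and Jund) and by 2.71% of tested genes. Because these are bulk samples, fewer cells with a transcript and less of it per cell cannot be told apart.

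**Figure D1:**
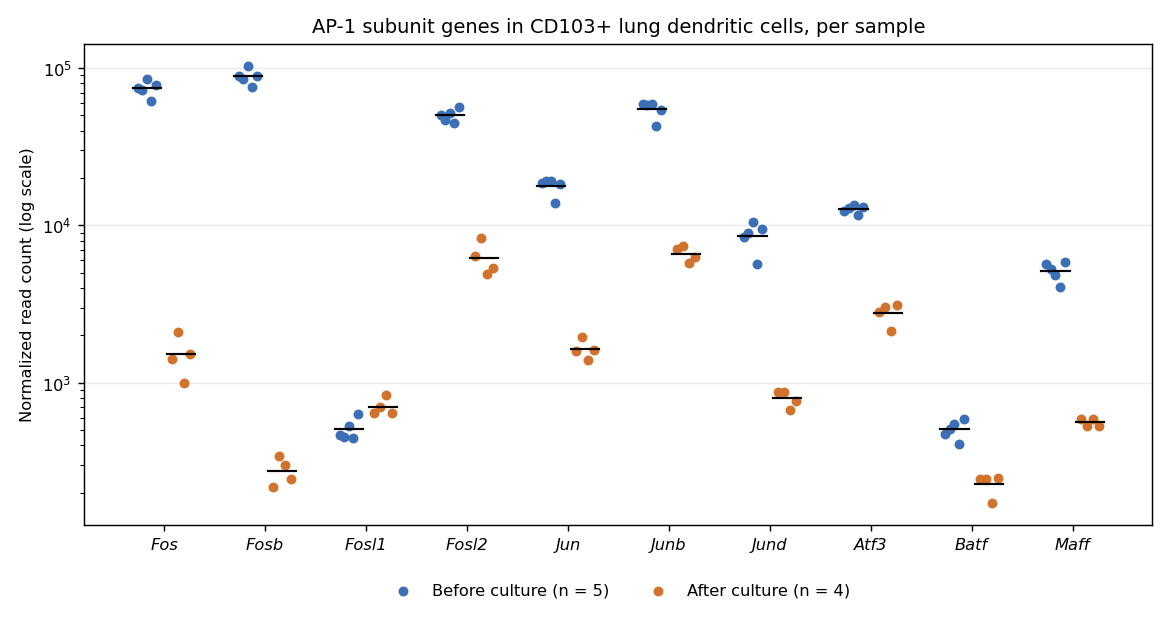
Normalized read count (log axis) of each AP-1 subunit gene, with 1 point per sample (5 before and 4 after culture, in replicate order) and a bar at the group mean. Fosb spans the widest distance, from 75381 to 103410 before culture to 218 to 340 after culture, and Fosl1 is the only gene whose points lie higher after culture.

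Taken as a group, the 10 genes held 1.21 ± 0.0812% of all reads in rows with a symbol before culture (SD, n = 5) and 0.0840 ± 0.00935% after culture (SD, n = 4). The lowest share before culture was 1.08% and the highest after culture 0.0951%. Depth ran from 14.7 to 28.8 M such reads per sample before and from 26.0 to 35.3 M after culture, so the smaller share after culture was read at similar or greater depth.

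Itgae, the gene of CD103, was read in every sample and fell (18138 ± 1537 against 1727 ± 335 normalized counts, given here and for genes below as mean ± SD with n = 5 before and n = 4 after culture). All 11 markers of cDC1, the lung dendritic cells known for CD103, were also read in every sample, with summed normalized counts of 143423 to 172698 before and 32451 to 36273 after culture (8 lower, 3 higher, Irf8 and Batf3 being also on lists used below), and all 6 markers of mature dendritic cells were higher after culture (44827 to 48203 against 223146 to 249806). Markers of other cells were read before culture too. All marker counts stand beside 34.6% of all tested genes lower and 34.2% higher. Lower after culture were 8 of 8 tested neutrophil markers (sum 12892 to 22205 before, 825 to 1712 after culture), 9 of 9 endothelial (24729 to 36130 and 3324 to 4372) and 6 of 6 fibroblast (15611 to 28377 and 2206 to 4422). So were 7 of 8 epithelial, with 1 higher (25876 to 42617 and 5987 to 9785), and 5 of 5 NK cell markers (1259 to 2630 and 255 to 405). For macrophages and monocytes 5 of 10 were lower and 5 not called (35467 to 56186 and 23024 to 45614). For T cells 3 of 8 were lower, 1 higher and 4 not called (6761 to 8456 and 5694 to 7635). For B cells 2 of 6 were lower, 1 higher and 3 not called (8036 to 11796 and 5962 to 8330). The lower counts of T and B cells were near the share over all tested genes. No marker was at 0 in every sample of a group, and only Camp and S100a9, both neutrophil markers, were at 0 in any sample. The part of these cells in the fall of the AP-1 subunits was not tested.

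The starts of 5 of the 9 genes that fell are shown, those with a TGACGT and that of Jun. They come from RefSeq on GRCm38.p6, in which 300-base windows around a start site (250 bases before it and 50 after) were matched for 9 of the 10 genes, all but Fosl1. Windows were searched on both strands for the AP-1 site TGANTCA, the wider TGANNTCA (which takes in the cyclic AMP response element TGACGTCA), TGACGTCA itself, TATAAA and the CArG box bound by serum response factor. The shorter TGACGT lies within TGACGTCA. Below, capitals mark every match to any of these in the windows of Fos (chr12:85473640-85473939, plus strand), Jun (chr4:95052173-95052472, minus strand), Atf3 (chr1:191183284-191183583, minus strand), Batf (chr12:85686470-85686769, plus strand) and 1 of the 3 start sites listed for Maff (chr15:79347270-79347569, plus strand).
Fos: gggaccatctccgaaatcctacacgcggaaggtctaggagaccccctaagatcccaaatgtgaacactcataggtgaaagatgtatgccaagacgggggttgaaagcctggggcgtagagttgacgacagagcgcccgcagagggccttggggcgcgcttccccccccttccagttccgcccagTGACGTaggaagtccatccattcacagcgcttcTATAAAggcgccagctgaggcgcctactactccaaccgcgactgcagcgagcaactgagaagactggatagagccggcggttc
Jun: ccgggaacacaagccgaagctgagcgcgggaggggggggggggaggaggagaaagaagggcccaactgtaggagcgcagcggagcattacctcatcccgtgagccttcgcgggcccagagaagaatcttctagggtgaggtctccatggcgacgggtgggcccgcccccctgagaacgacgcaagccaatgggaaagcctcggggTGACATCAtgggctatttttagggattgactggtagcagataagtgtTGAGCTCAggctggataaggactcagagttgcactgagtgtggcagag
Atf3: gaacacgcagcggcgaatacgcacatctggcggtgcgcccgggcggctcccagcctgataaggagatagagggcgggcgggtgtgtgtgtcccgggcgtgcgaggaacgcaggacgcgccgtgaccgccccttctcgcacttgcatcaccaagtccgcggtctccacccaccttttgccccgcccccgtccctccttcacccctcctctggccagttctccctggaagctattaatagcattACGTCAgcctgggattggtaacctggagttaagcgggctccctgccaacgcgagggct
Batf: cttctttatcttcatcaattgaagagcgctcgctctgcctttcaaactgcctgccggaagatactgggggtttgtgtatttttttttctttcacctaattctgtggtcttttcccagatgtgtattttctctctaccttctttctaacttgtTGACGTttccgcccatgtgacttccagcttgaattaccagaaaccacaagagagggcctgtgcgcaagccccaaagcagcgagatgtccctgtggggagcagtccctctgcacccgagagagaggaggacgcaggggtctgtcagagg
Maff: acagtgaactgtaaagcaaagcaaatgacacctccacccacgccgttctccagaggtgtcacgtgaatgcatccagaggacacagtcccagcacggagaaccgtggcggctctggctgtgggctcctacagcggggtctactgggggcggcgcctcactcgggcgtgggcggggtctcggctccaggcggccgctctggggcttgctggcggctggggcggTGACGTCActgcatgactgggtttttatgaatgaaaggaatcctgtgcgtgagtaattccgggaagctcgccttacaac

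The sequence TGACGT, searched for only once these windows had been read, was found in 4 of the 11 windows of the 9 genes (1 each of Fos, Atf3, Batf and Maff, the last with 3 windows) and in 7.51% of the 32851 windows of all genes. It began 66 bases before the start of Fos, upstream of a TATAAA that began 33 bases before that start. The full TGACGTCA was matched in 1 of the 11 windows, that of Maff shown, and in 1.79% of all windows. TGANNTCA was matched in 4 of the 11, those of Jun and Jund and 2 of Maff (14.1% of all windows), with TGACATCA 45 bases before the start of Jun and TGAGCTCA just past that start. TATAAA was matched in 2 of the 11, those of Fos and Junb (13.6% of all windows), that of Junb beginning at the annotated start itself. No window of the 9 genes held TGANTCA (7.81% of all windows) or the CArG box (1.63%) in these letters. Sequence further upstream than the windows was not searched, so a site there would be missed. With such low shares over all windows, the lack of a match in 11 windows cannot set these genes apart from others. The windows of Fosb, the gene with the steepest fall, and of Fosl2 held none of the 6 motifs. The still shorter half-site TGACG was not counted, and it stands in the windows of Fosb and Junb too. A TGACGT was thus held both by Fos and by Batf, which fell least of the 9.

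Among the Fos family, Fosb (chr7:19302696-19310118, minus strand) changed most. Its protein dimerizes with Jun proteins, and a shorter splice form, ΔFosB, is not separated by counts per gene. Its normalized read counts, in replicate order, were 88748, 85897, 103410.3, 75381 and 89226 before culture and 218, 339.7, 300.3 and 243 after culture. The lowest sample before culture was 222-fold above the highest after culture. The group mean was 322-fold lower after culture. In limma the difference was −8.34 on the log2 scale with an SE of 0.124 (adjusted p = 4.07e-14), the third lowest of 18202 tested genes.

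Fos (chr12:85473890-85477274, plus strand) is the prototype of the family. Its counts were 74304, 72805, 85792, 61889 and 77605 before culture and 1412, 2114, 1002 and 1520.5 after culture. Every sample before culture was at least 29.3-fold above every sample after culture. The mean was 49.2-fold lower, a log2 difference of −5.66 with an SE of 0.167 (limma, adjusted p = 9.87e-12) that ranked 45th from the lowest. The coefficient of variation was 11.6% before and 30.4% after culture, when replicate 3 was lowest and replicate 2 highest.

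Fosl2 (chr5:32136472-32157840, plus strand) read 50483, 46781, 51984, 44803 and 56476 before culture and 6399.6, 8336, 4925 and 5322 after culture. All after-culture samples lay below all before-culture samples, by at least 5.37-fold. The mean of this Fra-2 gene was 8.02-fold lower, and the log2 difference was −3.03, SE 0.135 (limma, adjusted p = 3.84e-10).

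Fosl1 (chr19:5447698-5455938) was the exception and rose 1.40-fold. It read 465, 450.4, 529.5, 448 and 634 before culture and 641, 699, 839.8 and 642 after culture. Its log2 difference was 0.49, SE 0.121 (limma, adjusted p = 0.00285). The groups were separated by a narrow margin: replicate 5 before culture lay 7.62 normalized counts below the lowest sample after culture, which is worth 4.26 reads in that library of 354 Fosl1 reads. Fosl1 overlaps Ccdc85b on the opposite strand, and strandedness is not given in the sources used here. Reads from the stretch in common may therefore be counted for the wrong gene. How much of the exons of the pair overlaps was not measured. Ccdc85b itself fell (150.4 ± 22.2 against 88.2 ± 14.5, SD, n = 5 and n = 4), the opposite direction to Fosl1.

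**Figure D2:**
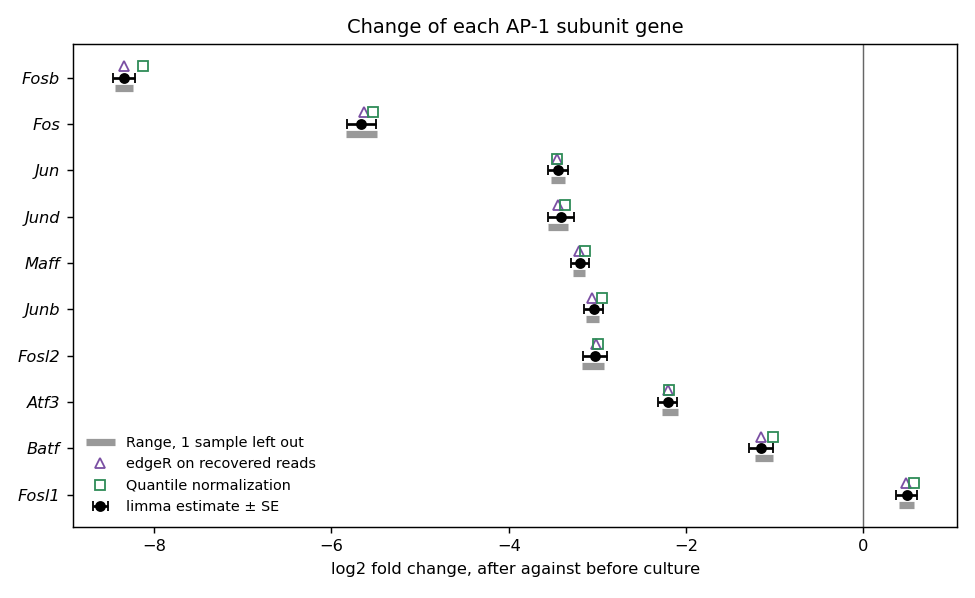
Log2 fold change, after against before culture, of each AP-1 subunit gene: limma estimate with SE (black), range of the estimate when 1 of the 9 samples is left out (grey bar), edgeR on recovered reads (triangle) and limma following quantile normalization (square). Estimates run from −8.34 for Fosb to 0.49 for Fosl1, and every alternative drawn keeps the sign.

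Unequal falls reordered the Fos family. The ratio of Fosb to Fos was 1.19 ± 0.0263 before and 0.194 ± 0.0707 after culture (normalized counts not corrected for length, SD, n = 5 and n = 4). The ratio of Fosl2 to Fos went the other way, from 0.676 ± 0.0525 to 4.22 ± 0.626. Fosl1 to Fos went from 0.00680 ± 0.000883 to 0.511 ± 0.224. Samples of the groups did not overlap in any of these ratios. They are given as descriptions with no test, because they combine members. Without a correction for length only their difference between the groups can be read, not which gene was higher: per kb, as given below, Fos lay above Fosb before culture.

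All 3 Jun genes fell. Junb (chr8:84976909-84978748, minus strand), a weaker activator than Jun that takes its place in many dimers, read 58742, 58094, 59036, 43078 and 54366 before culture and 7070.0, 7349.5, 5733 and 6306 after culture. The groups were at least 5.86-fold apart. Its mean was 8.26-fold lower, with a log2 difference of −3.04 and an SE of 0.110 (limma, adjusted p = 5.62e-11).

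Jun (chr4:95049036-95052222, minus strand), the main substrate of the JNK kinases, read 18609.9, 19068, 19112, 13895 and 18349 before culture and 1596, 1943, 1401 and 1613 after culture. Replicate 4 stood well below the other before-culture samples, but still 7.15-fold above the highest after-culture sample. On average Jun was 10.9-fold lower, which is −3.44 on the log2 scale with an SE of 0.112 (limma, adjusted p = 2.08e-11).

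Jund (chr8:70697739-70700616, plus strand) is the Jun gene usually described as expressed constantly rather than induced. It read 8424, 8973, 10453, 5698 and 9458 before culture and 870.1, 878, 669 and 767 after culture. The separation of the groups was again complete, at least 6.49-fold. Its fall of 10.8-fold, a log2 difference of −3.41 with an SE of 0.149 (limma, adjusted p = 3.17e-10), was close to the estimate for Jun.

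Within the Jun family the ratios differed less between the groups. Jun to Junb went from 0.326 ± 0.00773 to 0.248 ± 0.0167 and Jund to Junb from 0.156 ± 0.0193 to 0.120 ± 0.00280 (ratio of normalized counts, SD, n = 5 and n = 4). Samples of the groups did not overlap in these ratios either. Junb overlaps Prdx2, and Jun overlaps the noncoding gene Junos, on opposite strands. Prdx2 fell (2805 ± 229.7 against 1934 ± 284) and Junos rose (169 ± 20.9 against 253 ± 36.6). Gm11175, opposite Jund, was at 0 in all samples. Outside the Jun family, Atf3 overlaps Gm24748 on the opposite strand, for which no values are given here. No 50-base window of the longest transcript of any of the 10 genes occurred in a transcript of another gene.

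Of the remaining 3 genes, Maff (chr15:79346621-79359078, plus strand) fell most. It read 5699, 5317, 4824, 4078 and 5839 before culture and 587, 528, 591 and 529 after culture, when its samples lay close together (coefficient of variation 6.22%). Its mean dropped to a level 9.22-fold lower, a log2 difference of −3.19 (SE 0.102) with a limma adjusted p of 1.75e-11.

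Atf3 (chr1:191170296-191183333, minus strand) read 12318, 12945, 13551, 11664 and 13092 before culture and 2819, 3017, 2137 and 3117 after culture. The lowest before-culture sample was 3.74-fold above the highest after-culture sample. The estimate for Atf3, a 4.59-fold fall or −2.21 on the log2 scale (SE 0.103, adjusted p = 5.84e-10 in limma), was smaller than that of each Fos and Jun gene that fell.

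Batf (chr12:85686720-85709087, plus strand) had the smallest fall. It read 475, 505, 546, 408 and 589 before culture and 244, 244, 171 and 249 after culture. After culture replicates 1, 2 and 4 lay within a few counts of each other and replicate 3 lay below them. The groups were 1.64-fold apart at their closest. Its 2.22-fold fall was −1.15 on the log2 scale (SE 0.138, adjusted p = 6.16e-06 in limma).

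Levels of different genes were ordered per kb of the longest transcript (GENCODE M21). Before culture the order was Fos (35332 ± 4102 normalized counts per kb, SD, n = 5), Junb (30217 ± 3727), Fosb (23409 ± 2650), Fosl2 (7665 ± 699), Atf3 (6408 ± 370), Jun (5584 ± 693), Jund (5157 ± 1071), Maff (2631 ± 366), Batf (528 ± 72.4) and Fosl1 (271 ± 42.4). The ranges of neighbours overlapped for Fos with Junb, Junb with Fosb, Atf3 with Jun and Jun with Jund. Within each sample, however, Fos was above Junb, Junb above Fosb and Atf3 above Jun in 5 of 5 samples, while replicate 3 had Jund above Jun. At these levels Fos ranked 18th, Junb 22nd and Fosb 29th of the 17535 tested genes with a length.

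After culture the order began with Junb (3657 ± 406 normalized counts per kb, SD, n = 4), followed by Atf3 (1397 ± 222), Fosl2 (955 ± 233), Fos (717 ± 218), Jun (514 ± 70.5), Jund (477 ± 59.2), Fosl1 (379 ± 50.1), Maff (285 ± 17.8), Batf (238 ± 39.0) and Fosb (72.8 ± 14.5). From Atf3 to Fosl1 the range of each gene overlapped that of the next. Within each of the 4 samples Atf3 was above Fosl2, Fosl2 above Fos and Fos above Jun, whereas Jund was above Jun in replicate 1 and Fosl1 above both in replicate 3. With the mean length over transcripts Fosl1 stood in place 5, ahead of Jun and Jund, and Fosl2 was above Atf3 in replicate 2. Among the 17535 genes Junb was 294th, Fos 2164th and Fosb 9866th. Fosb therefore went from the third to the last place among the 10 genes.

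The summed level of the 10 genes per kb was 13.5-fold lower after culture (117202 ± 12721 against 8692 ± 1103). Within that sum, Fos and Fosb together made up 50.1 ± 1.41% before and 8.97 ± 1.49% after culture (SD). Junb went from 25.8 ± 1.30% to 42.1 ± 1.51% and Atf3 from 5.50 ± 0.369% to 16.1 ± 1.68%, although the level of both was lower after culture. The Jun genes as a family accounted for 34.9 ± 1.66% before and 53.6 ± 1.55% after culture, and the 4 Fos genes for 56.9 ± 1.59% and 24.3 ± 2.17%. Inside the Fos family, Fosl1 and Fosl2 held 0.407 ± 0.0516% and 11.5 ± 0.818% before culture, and 18.4 ± 5.08% and 44.7 ± 2.82% after culture. Shares over the members carry no test. They depend on the transcript length used, since with the mean length over transcripts the Fos and Fosb share was 53.1% before and 11.03% after culture.

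**Figure D3:**
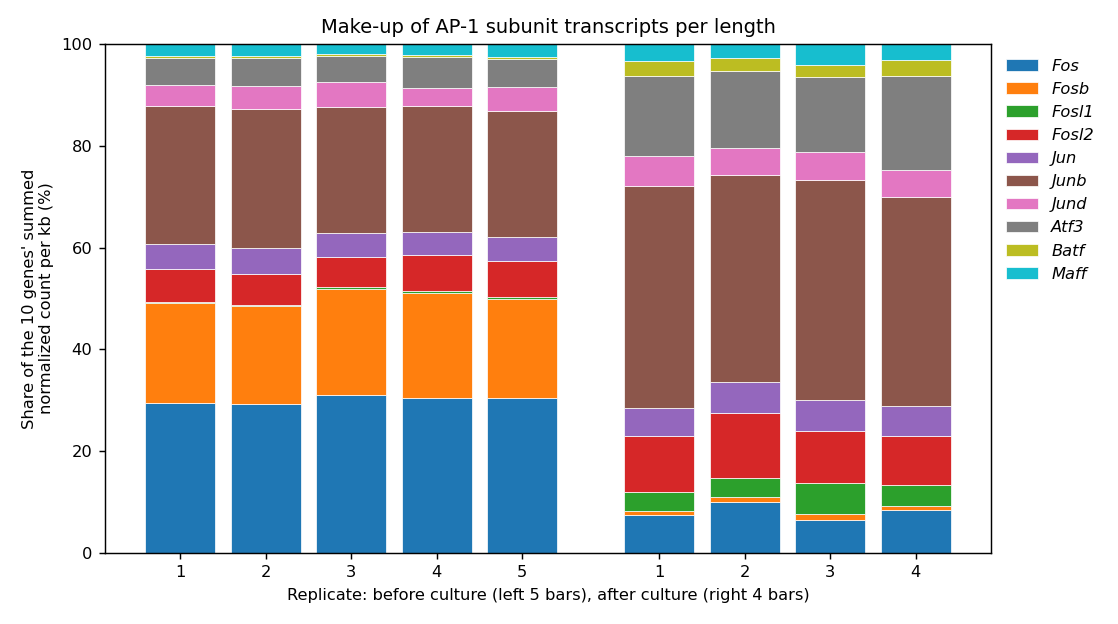
Share of each gene in the summed normalized count per kb of the 10 AP-1 subunit genes, 1 bar per sample. Fos and Fosb fill 48.6 to 51.9% of the bars before culture and 7.57 to 10.9% after culture, where Junb (40.7 to 43.6%) is the largest part.

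Replicates of a group differed in a shared way across the members. Replicate 4 before culture had the lowest value of its group in 10 of the 10 genes, while 30.4% of all tested genes were lowest in that sample. Its median deviation from the group mean was −0.28 on the log2 scale over the 10 genes, against 0.01 over all tested genes. The count of 10 also held with TMM scaling and became 8 with upper quartile scaling and 5 with quantile normalization. After culture, replicate 3 was lowest in 7 of the 10 genes (33.7% of all tested genes) and highest for Fosl1 and Maff, and its median deviation was −0.23. That count of 7 held with TMM and upper quartile scaling and became 5 with quantile normalization. Replicate 2 after culture was highest in 6 of the 10. In replicate 4 before culture the summed neutrophil markers (12892 normalized counts) and macrophage and monocyte markers (35467) were the lowest of the 5 samples, and the summed epithelial (42617), T cell (8456) and NK cell markers (2630) the highest. Their part in the deviation was not tested. With both samples left out, a check added after seeing the data, limma again called 9 of the 10 genes lower and 1 higher.

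**Figure D4:**
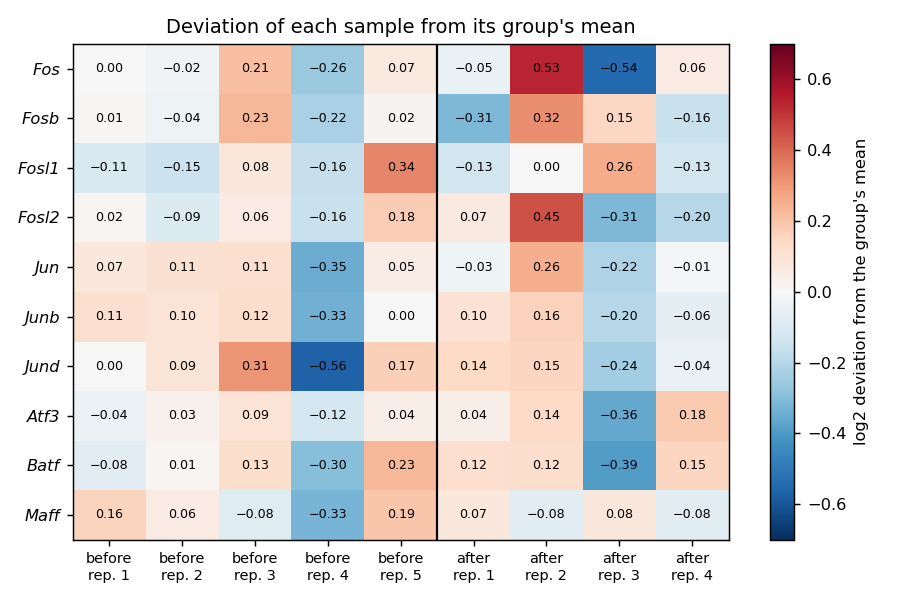
Deviation of each sample from the mean of its own group on the log2 scale, for each AP-1 subunit gene (rows) and sample (columns, 5 before and 4 after culture). The column of replicate 4 before culture is below 0 for all 10 genes (median −0.28), and that of replicate 3 after culture is below 0 for 7 of them.

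Genes that act with or upstream of AP-1 moved in both directions. The counts of this and the other related lists stand beside 34.6% of all tested genes lower and 34.2% higher. Of 16 other AP-1 and partner genes of the basic leucine zipper class, 14 were tested, and 6 were lower and 6 higher (median log2 fold change −0.23). Jdp2, a repressor that dimerizes with Jun, fell 6.89-fold (2502 ± 304 against 363 ± 54.6, adjusted p = 2.00e-10 in limma). Mafk, a small Maf gene like Maff, fell 3.88-fold (2509 ± 147 against 646 ± 45.0). Nfe2l1, a partner of small Maf proteins, rose 1.78-fold (3959 ± 191 against 7065 ± 283), and Atf7, a relative of Atf2 that is a target of stress kinases, rose 1.47-fold (1854 ± 148 against 2727 ± 170.1). Batf3, a relative of Batf needed for the cDC1 lineage and singled out here after its values were seen, rose 1.46-fold (511 ± 95.4 against 746 ± 96.4, adjusted p = 0.00387 in limma).

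Of 18 genes of the MAP kinase route that leads to AP-1, 10 were lower and 4 higher (median −0.25). Map3k1, an upstream kinase of JNK, rose 2.59-fold (8628 ± 226 against 22385 ± 944). Map2k3 and Map2k6, which activate p38, fell 2.18-fold (3631 ± 291 against 1666 ± 232) and 5.24-fold (204 ± 33.3 against 38.9 ± 14.0). Of 11 genes for factors that bind Fos and Jun promoters, 4 were lower and 4 higher (median −0.04). Crem (2.20-fold), Mef2d (2.27-fold) and Mef2c (2.92-fold) fell, while Creb1, the cyclic AMP response factor, rose 2.13-fold (2303 ± 101 against 4912 ± 584) and Mrtfa, a coactivator of serum response factor, rose 1.51-fold.

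Of 5 genes for proteins that share composite elements with AP-1, 4 were lower and 1 higher (median −0.99). Irf8, the lineage factor of cDC1 that pairs with BATF factors, fell 2.18-fold (18457 ± 1783 against 8465 ± 404). The calcium-regulated factors Nfatc2 and Nfatc1 fell 3.18-fold and 1.99-fold, and Nfatc3 rose 1.24-fold. On the short list for turnover of AP-1 proteins, 2 of 5 were lower and 3 higher (median 0.56). The ubiquitin ligase genes Itch and Cop1 rose 1.63-fold and 1.62-fold. Fbxw7, another ligase subunit, fell 1.23-fold, and Trib1, which encodes an adaptor of COP1, fell 16.9-fold (18106 ± 1107 against 1069.7 ± 155).

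Genes described as AP-1 targets moved in both directions. Of 22, 11 were lower and 7 higher (median −0.22). Ccnd1, the cyclin of the G1 phase, fell 9.18-fold (4106 ± 285 against 447 ± 4.21, adjusted p = 1.37e-12 in limma). In the other direction, Mmp12, the macrophage elastase, rose 25.8-fold (2412 ± 397 against 62246 ± 15411), and Hmox1, the heme-degrading stress enzyme, rose 6.97-fold (2385 ± 293 against 16631 ± 3624). Other immediate early genes mostly fell with the subunits, 19 of 21 being lower and 1 higher (median −2.16). Nr4a1, an orphan nuclear receptor, was 93.1-fold lower (44963 ± 5458 against 483 ± 83.9), Ier2 13.0-fold and Btg2, which restrains proliferation, 9.53-fold lower, whereas Arc, first known from neurons, rose 7.86-fold (558 ± 36.5 against 4388 ± 349).

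**Figure D5:**
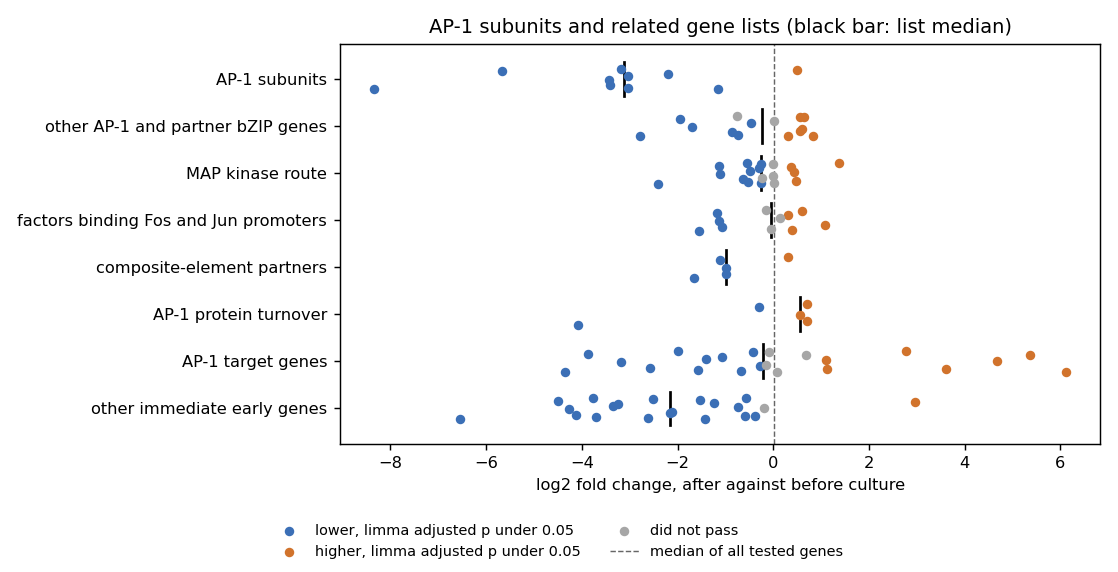
Log2 fold change, after against before culture, of each tested gene of the AP-1 subunits and of 7 related lists, coloured by the limma call, with a black bar at the list median and a dashed line at the median of all tested genes (0.0065). The AP-1 subunits (median −3.12) and the other immediate early genes (median −2.16) lie mostly to the left, while the other lists spread to both sides of 0.

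Genes with the profile most like a subunit were ranked by the root mean square difference of log2(normalized count + 1), each gene centred on its mean over the 9 samples. The closest to Fos were Ctnnd2 (difference 0.22), Sema3f (0.28) and Tmem252 (0.31), and Ctnnd2 went from 2041 ± 327 to 35.7 ± 4.23. The closest to Jun were the clock gene Per1 (0.12, from 15290 ± 1106 to 1372 ± 118), Ier5l (0.12) and Lifr (0.13). Fosl2 was nearest to Plk3 (0.12), H1f5 (0.13) and Irs2 (0.14), and Atf3 to Napsa (0.09), Mboat1 (0.10) and Ece1 (0.11). Batf was nearest to Sgo2a (0.08), Mrm1 (0.09) and Rps6ka1 (0.10), and Fosl1 to 4933427D14Rik (0.10), Zfp672 (0.11) and Polr3k (0.11). No AP-1 subunit was among these closest genes of another, and each profile includes the difference between the groups.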

How the data were processed

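The series measured RNA of CD103-positive lung dendritic cells in 5 samples before and 4 after culture, grouped by title. The authors deposited 1 table of normalized counts by gene (unit: signal, at least 0). The submitters' processing notes name DESeq2 and GRCm38, with no role given. The aligner, counter, annotation, filters and strandedness are not given in the sources used here. All values (100%) were whole multiples of the worth of 1 read in their column, within 1e-06 of a read, so whole reads could be recovered. The 3782 rows with no symbol held 6.43 to 10.9% of reads before and 3.87 to 5.46% after culture and were left out of depths and tests. Values are not corrected for gene length. The labels name no molecular identifiers, and the spread between replicates was used as the error.

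Named rows averaging 10 or more over all samples (18202) were tested on log2(normalized count + 1) with limma 3.58.1 in R 4.3.3, using group alone, a mean-variance trend and two-sided Benjamini-Hochberg adjusted p. Folds are ratios of group means of normalized counts, and log2 differences are of log2(normalized count + 1), which understates them for low genes. Alternatives were other pseudocounts (0.5 and 8), filters and scalings, edgeR 4.0.16 and DESeq2 1.42.0 on recovered reads, replicate blocks and each sample left out. The script was tested on simulated counts.

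The members and lists were chosen with earlier results of these data known. All members were to be named, with up to 3 genes of each related list by smallest adjusted p, up to 2 called against the list's majority, and the 3 nearest profiles of 6 members. The result for 1 gene of the rule is not reported here. Positions are from RefSeq (GRCm38.p6), and lengths and overlaps from GENCODE M21 on that build, which may not be the authors' annotation. Python 3.11.15, pandas 2.3.3, NumPy 2.4.6 and matplotlib 3.10.9 were used.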

Additional observations from a re-analysis of the deposited data

Results flagged for a closer look

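In 76 groups of values (10 AP-1 subunits and 28 related genes chosen by the naming rule, before and after culture), 5 held a sample far from the others by Dixon's 95% criterion, where chance gives about 1 in 20. Jun was low in replicate 4 before culture (13895 normalized counts, with 18349 to 19112 in the other 4 samples). Nfatc1 was low in that sample as well (5378, others 5751 to 5836) and Creb1 high (2478, others 2219 to 2290). Batf was low in replicate 3 after culture (171, others 244 to 249), and Crem high there (1890, others 1754 to 1768). All 5 of these values fell on the same 2 of the 9 samples. Both were often extreme over all tested genes too. Replicate 4 before culture was lowest of its group in 30.4% and highest in 29.2% of tested genes. Replicate 3 after culture was lowest in 33.7% and highest in 30.4%.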

How the results depend on the processing

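All 10 AP-1 subunit genes kept their direction and their side of the threshold under each of the 21 alternatives run, 9 lower and 1 higher. Fosl1, the weakest call, ranged in log2 fold change from 0.40 to 0.57 when 1 sample was left out (limma adjusted p 5.67e-04 to 0.00974) and reached an adjusted p of 0.0253 with no filter on low values. Without both replicate 4 before and replicate 3 after culture it was 0.36 (adjusted p = 0.0137 in limma). Fosb ranged from −8.45 to −8.23 and Fos from −5.84 to −5.48 with 1 sample left out. Genes called in all numbered 12524, between 11770 and 12668 with 1 sample left out, 12562 with edgeR and 12663 with DESeq2 (3 genes without an adjusted p), and 9925 with a minimum mean of 50. Upper quartile scaling moved the median log2 fold change of all tested genes to 0.11, with 5579 lower and 7120 higher calls, and Fosl1 to 0.59. The counts of the related lists stayed within 1.5 times of those given. With the mean transcript length, the share of Fos and Fosb was 53.1% before and 11.03% after culture. The replicate block by title number, over 8 samples, called 11674 genes (12144 in the same samples without it), and by library number 12859 (11954 without it). Both left 9 subunits lower and 1 higher. Deviations of same-numbered samples correlated at −0.213 to 0.0807 by title number and 0.0447 to 0.349 by library number, all positive in the latter case. Whether samples with the same library number share an animal or a day is not stated. The main fit was therefore made without pairs, although these correlations do not speak against a pairing by library number. By library number each of the 4 after-culture samples correlated best with its own number, and 3 of the 4 before-culture samples did. Since the authors' factors set the scale, a change of all transcripts at once would not be seen, and isoforms are not resolved.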

Other observations

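The 2 samples in which the AP-1 subunits were lowest most often, replicate 4 before and replicate 3 after culture, carry the same number in their library names (B4 and A4). Correlation of the deviations of these samples from their group means, across tested genes that are not independent of each other, was 0.349. Creb1 and Crem are named here because they were flagged above. Creb1 was flagged as high in replicate 4 before culture, and Crem as high in replicate 3 after culture. Those values are therefore not a separate result. In the 2 samples Creb1 read 2478 (mean 2303) and 5409 (mean 4912) normalized counts, and Crem 4095 (mean 3939) and 1890 (mean 1793). Nfatc1 was flagged in replicate 4 before culture as well, but as low. A link of these genes to the AP-1 subunits was not tested.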
